A study of Mus musculus with 4 samples.

Results

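The genes described here act at the start of meiotic recombination, when the chromosomes of a spermatocyte are cut on purpose. They are the break formation genes *Spo11*, *Mei1*, *Mei4*, *Rec114* and *Ankrd31*, the hotspot gene *Prdm9*, the axis genes *Hormad1* and *Hormad2*, and *Trip13*, whose product takes the HORMADs off the axis. The genes were chosen by name, as a list of 9 genes, by a rule that uses no measured value, but earlier results of these data were known when the list was made. Of these, 8 had a row among the 24411 genes of each file, and all 8 were among the 14512 genes kept for testing, whose TPM averaged 1 or more. Expression of *Ankrd31*, whose product binds REC114, was not analysed here, and the gene enters only the search of promoter sequences.

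SPO11 cuts DNA as a topoisomerase-like enzyme, and it needs MEI1, MEI4 and REC114, which gather on the unsynapsed chromosome axis. PRDM9 binds DNA through a zinc finger array and methylates histone H3, and by this it chooses where most breaks fall. HORMAD1 and HORMAD2 coat the axis, HORMAD1 promotes break formation and pairing, and TRIP13 removes both proteins from axes that have synapsed, so that most of this machinery works in leptotene and zygotene and is shut down in pachytene.

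RNA was measured in GFP-positive male germ cells sorted from testes at postnatal day 18, in 2 control *Zfp541*+/- libraries and 2 libraries labelled *Zfp541* KO, written KO-labelled from here on. All mice carried *Rec8-3FH-GFP* KI, which makes GFP along with the meiotic cohesin REC8, so the gate follows *Rec8* expression. In 1 control testis the allele was heterozygous and in the other homozygous, as it was in both KO-labelled testes. The sample labels do not say which control library is which. The KO allele is a CRISPR/Cas9 deletion of a run of exons that begins with the first, a single KO line served for most of the experiments of the study, and the strain is labelled C57BL/6 and CBA mixed where the methods of the study name C57BL/6. The labels name individual testes, so the spread given below is that between testes, and it rests on 2 in each group. Values are TPM, an abundance that allows for gene length, sums alike in each library and keeps no sequencing depth.

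The targeted gene was not lower in the KO-labelled libraries. *Zfp541* (chromosome 7 of GRCm38, 16061814 to 16096334, forward strand) had TPM of 112 (control 1), 72.2 (control 2), 136 (KO-labelled 1) and 151 (KO-labelled 2). Gene-level TPM cannot show which exons the reads came from, so every direction given below rests on the labels.

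The 2 controls stood apart from each other in their cell type markers. The 5 Leydig cell markers summed to 2873 TPM in control 1, to 18.0 in control 2, and to 324 and 491 in the KO-labelled libraries. The 5 macrophage markers summed to 2045 and 21.6 TPM in the controls and to 1687 and 1251 TPM in the KO-labelled libraries. Control 2 was thus the library with the least of both, although each of these 10 markers was above 0 in it. The 6 Sertoli cell markers summed to 836 and 782 TPM in the controls and to 1094 and 786 TPM in the other group, most of it from *Clu* (688 and 501 TPM in the controls), while the other 5 were each higher in control 2 than in control 1, such as *Amh* at 4.69 and 17.3 TPM.

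Markers of meiotic stages also differed between the controls. The 6 preleptotene to zygotene markers with a row (of 8 listed) summed to 486 TPM in control 1 and 1163 TPM in control 2, and to 1089 and 959 TPM in the KO-labelled libraries, inside the range of the controls. The 10 pachytene markers summed to 8407 and 4211 TPM in the controls and to 3136 and 4328 TPM in the KO-labelled libraries. Control 1 had the most pachytene and the least early prophase marker RNA of the 4 libraries. The 7 spermatogonial markers were at 259 and 797 TPM in controls, against 463 and 386 TPM in the other group. Of the other lists, 7 round spermatid markers summed to 136 and 50.4 TPM against 46.6 and 50.6 TPM, 4 peritubular myoid markers to 10.7 and 17.6 against 23.5 and 17.2 TPM, and 5 red blood cell genes to 71.5 and 20.3 against 29.7 and 280 TPM. Among the spermatid markers, *Prm1* was at 0 TPM in every library but control 1, *Tnp1* in both controls, *Prm2* in control 2 and KO-labelled library 2, and *Tnp2* and *Acrv1* in control 2. *Hba-a2* and *Hbb-bs*, which have near copies that share reads, were at 0 TPM in every library but KO-labelled library 2, and *Hba-a1* was at 0 TPM there. The part of these differences in the results below was not tested, and in sorted bulk samples fewer cells of a type and less RNA per cell cannot be told apart.

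**Figure D1:**
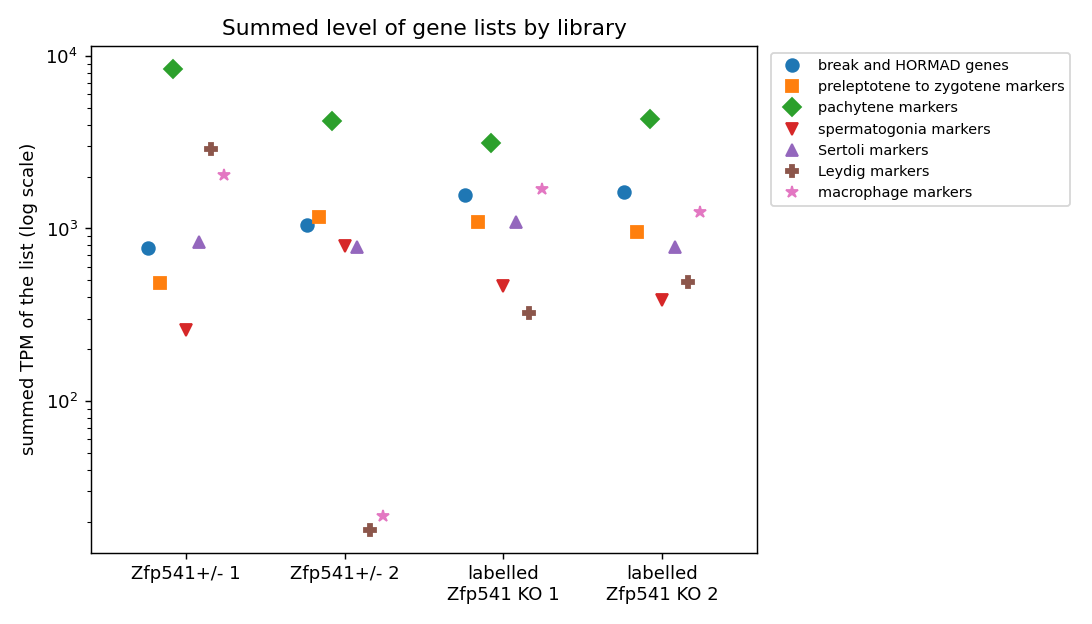
Summed TPM (log axis) of the 8 break formation and HORMAD genes and of 6 marker lists in each of the 4 libraries, with one marker shape for each list. The break formation and HORMAD genes sum to 771 and 1053 TPM in the controls and to 1559 and 1637 TPM in the KO-labelled libraries, whereas the Leydig and macrophage lists drop to 18.0 and 21.6 TPM in control 2.

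As a group, the break formation and HORMAD genes were at higher levels in the KO-labelled libraries, but none passed an FDR of 0.05. In 6 of the 8 genes (*Mei1*, *Mei4*, *Prdm9*, *Hormad1*, *Hormad2* and *Trip13*) both KO-labelled libraries lay above both controls, an arrangement found in 38.6% of all genes tested. In 0 of the 8 did both lie below, against 12.1% of all genes. The groups overlapped in *Spo11* and *Rec114*. After median-ratio scaling, which puts the median of all genes near 0, the KO-labelled libraries were still higher without overlap in *Prdm9*, *Mei4* and *Hormad1* and were lower without overlap in *Spo11*, against 23.1% of all genes higher and 22.3% lower. So scaled, control 2 and the nearer KO-labelled library were at 45.9 and 50.9 in *Prdm9* and at 5.75 and 7.41 in *Mei4*. For *Hormad1* they were at 910 and 1003. In each of these genes the controls lay further apart than that, such as 24.3 and 45.9 in *Prdm9*. The median log2 fold change of the 8 genes was 0.86 on the log2(TPM + 1) scale, against 0.28 over all 14512 genes.

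No gene of the whole table passed an FDR of 0.05 in limma (0%, with 2091 genes at an unadjusted p under 0.05), and the adjusted p of the 8 genes lay between 0.315 and 0.802. *Prdm9* and *Hormad1* were higher at an unadjusted p under 0.05, which makes 2 of the 8 against 10.7% of all genes. *Prdm9* and *Mei4* were higher by at least 1 on the log2 scale, again 2 of the 8 and against 8.98% of all genes. An exact permutation of 2 against 2 samples cannot give a two-sided p under 0.33.

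How far the group stood above other genes changed from control to control. With control 1 as the base, the median difference of the 8 genes was 1.19 in KO-labelled library 1 and 1.15 in KO 2, where all genes had medians of 0.17 and 0.13. Against control 2 it was 0.51 and 0.40, where all genes had medians of 0.45 and 0.43. Without control 1 the fitted median was 0.46 against 0.44 over all genes, so the group then lay close to the shift of all genes. Without control 2 it was 1.2 against 0.15. The controls themselves differed, with 7 of the 8 genes higher in control 2 and a median difference of 0.70, against -0.36 over all genes. Among the marker lists of meiotic stages, the 6 preleptotene to zygotene markers had a median log2 fold change of 0.65. Of these, 3 were higher without overlap, against 38.6% of all genes. The 10 pachytene markers had a median of -0.95, and 5 were lower without overlap, against 12.1% of all genes. The summed levels of both lists overlapped between the groups, no marker passed the FDR, and the part of these markers in the result was not tested.

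**Figure D2:**
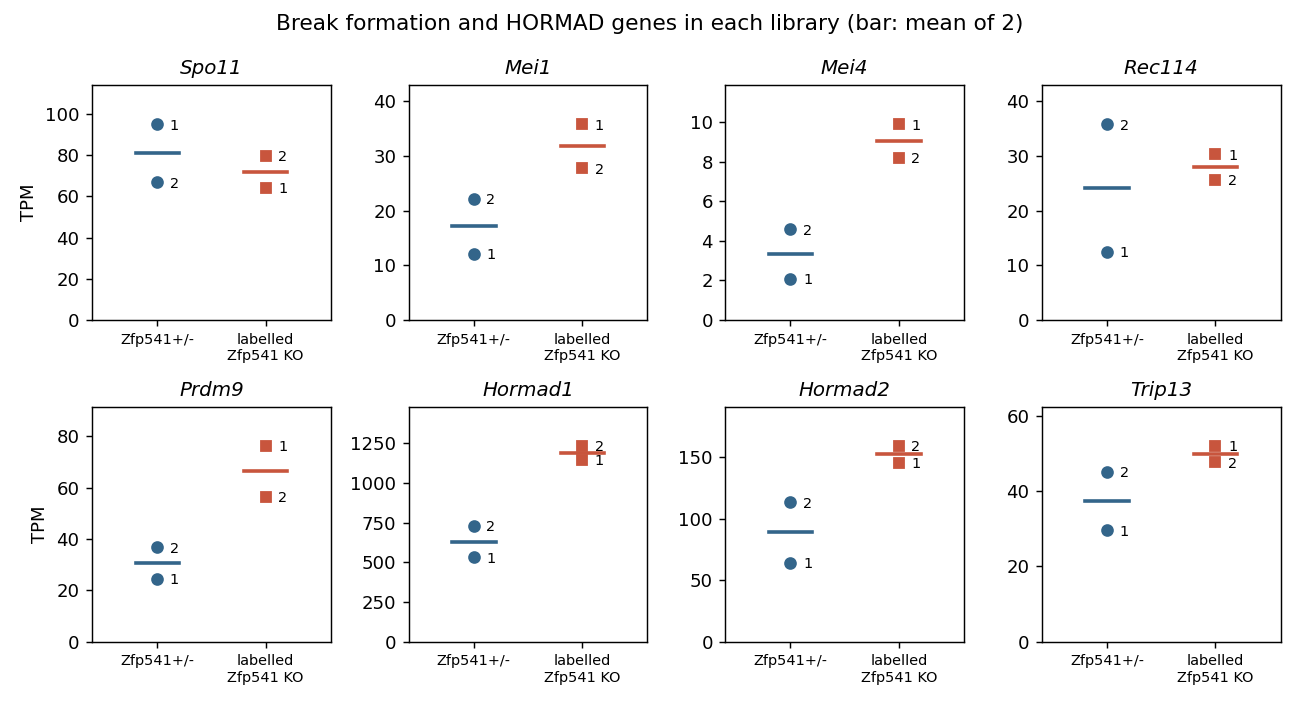
TPM of each gene (linear axes from 0, a separate scale for each gene) in the 2 *Zfp541*+/- libraries (circles) and the 2 KO-labelled libraries (squares), with the replicate number beside each point and the group mean as a bar. The groups overlap in *Spo11* and *Rec114* only, and control 1 is the lowest library in each gene except *Spo11*, where it is the highest at 95.1 TPM.

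In the TPM as deposited, the groups were apart in *Hormad1*, *Prdm9* and *Hormad2* but not in *Rec114*, and after median-ratio scaling *Hormad2* overlapped too. For this reason, and because motifs that were searched occur there, sequences before the start sites of these 4 genes are given. They are RefSeq promoter windows of GRCm38.p6, which hold 250 bases before to 50 after a start, and 8 of the 9 listed genes had such a window, *Spo11* being the exception. Shown are the last 120 bases before the start, 5′ to 3′ on the strand of the gene. Capitals mark CACGTG (the E-box bound by MAX and its partners), TTCCCGC or its complement GCGGGAA (an E2F-type site), and CNCCTCAG or its complement CTGAGGNG (the letters described for STRA8).
Hormad1, chr3:95559557-95559676, forward strand: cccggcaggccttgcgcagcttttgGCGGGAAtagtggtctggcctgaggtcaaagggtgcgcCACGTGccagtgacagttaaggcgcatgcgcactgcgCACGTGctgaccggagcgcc
Rec114, chr9:58741560-58741679, reverse strand: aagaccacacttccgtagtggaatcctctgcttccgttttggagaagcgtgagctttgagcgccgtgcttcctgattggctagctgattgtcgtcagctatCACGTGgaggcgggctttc
Prdm9, chr17:15564355-15564474, reverse strand: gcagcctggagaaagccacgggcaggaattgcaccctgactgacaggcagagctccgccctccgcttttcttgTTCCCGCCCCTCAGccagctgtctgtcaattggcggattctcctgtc
Hormad2, chr11:4441083-4441202, reverse strand: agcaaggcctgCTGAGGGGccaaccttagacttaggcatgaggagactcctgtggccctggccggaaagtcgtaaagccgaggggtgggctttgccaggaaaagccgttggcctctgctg

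The *Hormad1* sequence holds CACGTG at -57 and -20 and GCGGGAA at -95 from the start. *Rec114* holds CACGTG at -19 and GCGGGAA at 27, which is after the start and so is not shown. In the window of the upstream *Prdm9* start, TTCCCGC at -47 runs into CCCCTCAG at -41 with a shared base, and CTCCTCAG follows at 15, while the window of its other start holds none of the 5 motifs. CACGTG is in 7.15% of all 32851 windows, TTCCCGC in 4.6% and CNCCTCAG in 7.94%, on either strand. Of the 2 other motifs searched, TAACNG (a MYB-type site) is in the windows of *Hormad1* and *Mei4* and in 23.3% of all windows, and TGACGTCA (the full CRE site) is in none of the listed genes and in 1.79% of all windows. *Mei1* and *Trip13*, whose TPM was also higher in both KO-labelled libraries, hold none of the 5 motifs in their windows. The RefSeq starts used for *Mei1*, *Rec114*, *Hormad2* and *Trip13* lie inside the extent of the GENCODE gene given below, so the annotations differ in where these genes start. Those of *Hormad2* and *Trip13* lie close to its edge. The other start of *Prdm9* lies inside the extent of its gene too.

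*Spo11* encodes the catalytic subunit that cuts the DNA. The gene lies on chromosome 2 of GRCm38 from 172977700 to 172993576 on the forward strand, with 13 exons in its longest coding transcript. It was at 95.1 and 66.9 TPM in controls, against 64.2 and 79.6 TPM in the KO-labelled libraries. The highest library was control 1, and the group means were 81.0 ± 19.9 and 71.9 ± 10.9 TPM (SD, n = 2 each). The log2 fold change was -0.16 (standard error, SE, 0.27, 95% interval -0.88 to 0.56, adjusted p = 0.802 from limma), so that a rise of more than 0.56 on this scale lay outside the interval. Its direction turned without control 1, to 0.0933. Gene-level TPM does not separate the splice forms of *Spo11*, whose proteins differ in their role and time of use.

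*Mei1*, which is required for break formation, lay higher in both KO-labelled libraries. The gene is on chromosome 15 from 82069996 to 82126814 on the forward strand. It was at 12.2 and 22.1 TPM in controls, against 35.8 and 27.7 TPM in the other group. Control 1 was the lowest, and the gap between control 2 and the nearer KO-labelled library was smaller than the gap between the controls. The log2 fold change was 0.90 (SE 0.39, adjusted p = 0.383 from limma).

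*Mei4* and *Rec114* encode partners in one complex, yet their values did not run in parallel. *Mei4* (chromosome 9, 81863670 to 82206007, forward strand) was at 2.09 and 4.60 TPM in controls, against 9.91 and 8.20 TPM in the KO-labelled libraries. The groups did not overlap, although control 2 and KO-labelled library 2 differed by 0.72 on the log2 scale and the controls by 0.86. The ratio of the means was 2.71, the largest of the 8 genes. Its log2 fold change of 1.27 (SE 0.47, 95% interval -0.0014 to 2.54, adjusted p = 0.347 from limma) is understated by the pseudocount at such a low level, and was 1.51 with a pseudocount of 0.1.

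*Rec114* (chromosome 9, 58652850 to 58743964, reverse strand) was at 12.5 TPM in control 1, the lowest of its values, and at 35.9 TPM in control 2, the highest. The KO-labelled libraries fell between them, at 30.4 and 25.6 TPM. Its log2 fold change was 0.37 (SE 0.55, 95% interval -1.13 to 1.87, adjusted p = 0.771 from limma), and without control 1 it turned to -0.35. The controls differed in *Rec114* by 1.45 on the log2 scale, more than in any other of the 8 genes. Exonic bases of *Rec114* are shared with *Nptn* on the opposite strand in the annotation. *Nptn* was at 70.8 and 44.3 TPM in controls, against 96.6 and 78.6 TPM in the other group, and without a statement on strand in the counting, reads from the shared bases cannot be told apart.

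*Prdm9*, which selects recombination hotspots, had the ratio of means next to that of *Mei4* in size. The gene is on chromosome 17 from 15543079 to 15564354 on the reverse strand. It was at 24.5 and 36.7 TPM in controls, against 76.3 and 56.4 TPM in the KO-labelled libraries. Both of the latter lay above both controls, and the ratio of the means was 2.17. The log2 fold change was 1.10 (SE 0.31, 95% interval 0.26 to 1.95, adjusted p = 0.315 from limma).

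*Hormad1* was the most abundant of the 8 genes by far, and its product is the axis protein on which break formation and the checkpoint of asynapsis depend. It lies on chromosome 3 from 95559677 to 95587671 on the forward strand. Its level was 531 and 728 TPM in controls, against 1145 and 1232 TPM in the KO-labelled libraries. The difference between the group means, 630 ± 140 and 1189 ± 61.6 TPM (SD, n = 2 each), was larger than either spread. The log2 fold change was 0.93 (SE 0.28, 95% interval 0.18 to 1.68, adjusted p = 0.319 from limma). The 120 bases before its start, given above, hold both CACGTG matches. Its level ranked above at least 98.2% of the genes tested in each of the 4 libraries.

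*Hormad2*, the paralogue needed for the response to unsynapsed axes, followed *Hormad1* at a lower level. It lies on chromosome 11 from 4345814 to 4441105 on the reverse strand. It was at 64.3 and 113 TPM in controls, against 145 and 159 TPM in the KO-labelled libraries. All 4 values were in the same order as those of *Hormad1*. The log2 fold change was 0.83 (SE 0.33, adjusted p = 0.361 from limma).

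*Trip13* encodes the AAA+ ATPase that opens HORMA domains and strips HORMADs from synapsed axes. It lies on chromosome 13 from 73911347 to 73937784 on the reverse strand. It was at 29.5 and 45.2 TPM in controls, against 52.0 and 47.6 TPM in the KO-labelled libraries. The groups did not overlap, but control 2 and KO-labelled library 2 were only 0.075 apart on the log2 scale. The log2 fold change was 0.44 (SE 0.29, 95% interval -0.34 to 1.21, adjusted p = 0.520 from limma).

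Since TPM corrects for length, the levels of the 8 genes can be put in order. In the controls the order of the means was *Hormad1*, *Hormad2*, *Spo11*, *Trip13*, *Prdm9*, *Rec114*, *Mei1* and *Mei4*. The ranges of *Hormad2* and *Spo11* overlapped, as did those of neighbours from *Trip13* to *Mei1*. Between neighbours, only *Hormad1* at the top, *Mei4* at the bottom and the step from *Spo11* to *Trip13* were thus separated without overlap. Genes further apart in the order could be separate too, such as *Mei1*, which lay below *Prdm9* in both controls without overlap. In the KO-labelled libraries, *Prdm9* came after *Spo11*, at 66.4 TPM, and above *Trip13* at 49.8 TPM without overlap, while it overlapped with *Spo11*. *Mei1* and *Rec114* overlapped there too.

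Ratios between genes of the same library do not depend on how that library was scaled. *Hormad1* was 8.25 and 6.44 times *Hormad2* in controls, against 7.87 and 7.75 times in the KO-labelled libraries. The ratio of the paralogues thus overlapped between the groups. Likewise, *Hormad1* over *Sycp3*, which encodes a core protein of the axis, was 0.48 and 0.58 in the controls and 0.55 and 0.56 in the other group.

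*Spo11* was lower relative to each of 5 genes that were picked for ratios after the values were seen. It was 3.89 and 1.82 times *Prdm9* in the controls, and 0.84 and 1.41 times in the KO-labelled libraries. It was 45.5 and 14.6 times *Mei4* in the controls, and 6.48 and 9.70 times in the other group. Its ratio to *Hormad1* was 0.18 and 0.092 in the controls, and 0.056 and 0.065 in the KO-labelled libraries. The groups did not overlap in any of these, nor against *Mei1* or *Gm960*, the gene of the TOPOVIBL subunit that pairs with SPO11 (10.8 and 3.63 against 2.48 and 3.23). In all 5 ratios control 2 lay nearer than control 1 to the KO-labelled libraries. The lower ratio did not hold against every gene of the pathway. By their TPM, *Spo11* over *Rec114*, over *Trip13* and over *Ccdc36* overlapped between the groups, while *Spo11* over *Hormad2* did not.

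*Mei4* was higher relative to its partners. It was 0.17 and 0.13 times *Rec114* in controls, against 0.33 and 0.32 times in the KO-labelled libraries, and 0.17 and 0.21 times *Mei1* in the controls against 0.28 and 0.30 times. *Hormad1* over *Trip13* was 18.0 and 16.1 in the controls, and 22.0 and 25.9 in the KO-labelled libraries. These 3 ratios did not overlap between the groups, and with 2 libraries a group their difference cannot reach an exact p under 0.33.

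**Figure D3:**
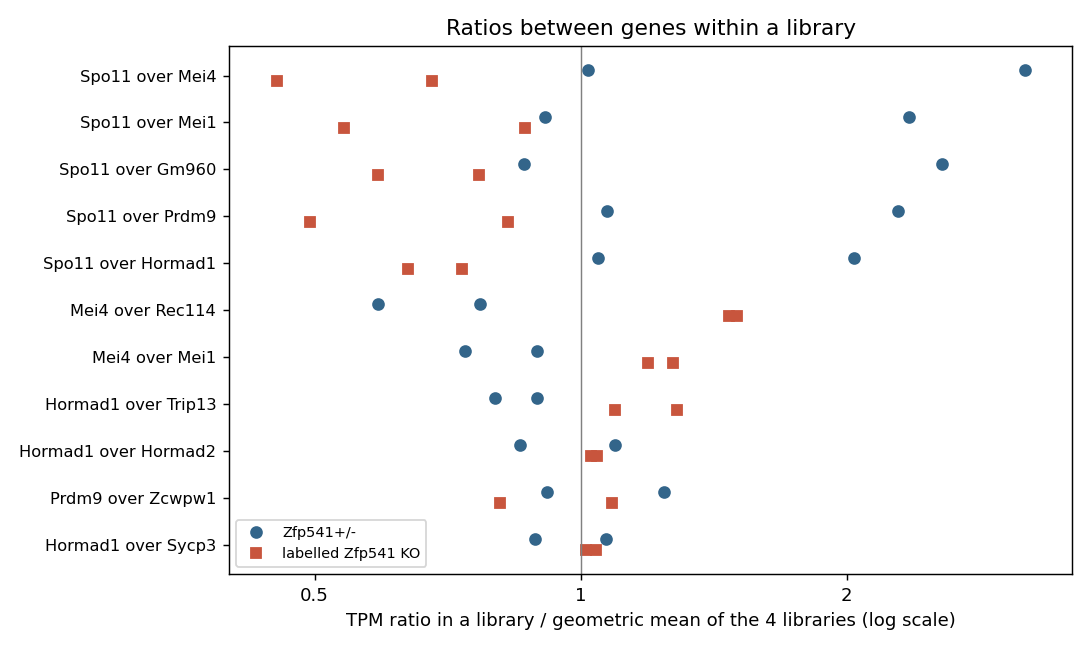
TPM ratios of gene pairs in each library, each divided by its geometric mean over the 4 libraries (log axis), for *Zfp541*+/- (circles) and KO-labelled libraries (squares). The 5 ratios with *Spo11* on top lie lower in the KO-labelled libraries and those with *Mei4* on top higher, while *Hormad1* over *Hormad2*, *Prdm9* over *Zcwpw1* and *Hormad1* over *Sycp3* overlap.

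The other genes of the pathway were described by lists written with earlier results of these data known, and 0 of their 26 tested genes passed an FDR of 0.05 in limma. Their counts of genes higher without overlap stand beside 38.6% of all genes as deposited and 23.1% after median-ratio scaling. In the break machinery list all 4 genes lay higher in both KO-labelled libraries, with a median log2 fold change of 1.04 against 0.28 over all genes, and after median-ratio scaling 2 (*Atm* and *Tex15*) did, with a median of 0.72. *Atm*, the kinase that limits the number of breaks, was at 16.5 and 16.7 TPM in controls, against 42.9 and 38.4 TPM in the KO-labelled libraries (log2 fold change 1.24, adjusted p = 0.310 from limma). The controls agreed closely in *Atm*, and the groups were far apart. *Tex15*, which is needed for the repair of breaks, was at 57.5 and 79.0 against 173 and 131 TPM. *Ccdc36*, the gene of the HORMAD1 partner IHO1, was at 29.7 and 40.2 against 52.8 and 42.6 TPM, a difference smaller than that between the controls when control 2 is compared with KO 2.

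Among genes of break end processing, 4 of 5 lay higher without overlap (38.6% of all genes) and the median was 0.52, and after median-ratio scaling 3 did, with a median of 0.20. *Rad50*, part of the nuclease complex that frees SPO11 from the ends, was at 30.7 and 21.7 TPM in controls, against 51.0 and 50.5 TPM in the KO-labelled libraries. *Exo1*, which resects the ends, overlapped between the groups, at 13.0 and 18.6 against 20.5 and 17.6 TPM. Its log2 fold change of 0.27 was close to the median of all genes and turned to -0.038 after median-ratio scaling.

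Of the PRDM9 partners, 4 of the 5 listed had a row, and all 4 lay higher without overlap (38.6% of all genes), with a median of 0.94, and after median-ratio scaling each but *Cxxc1* did. *Zcwpw1*, a reader of the histone marks that PRDM9 writes, was at 151 and 308 TPM in controls, against 539 and 534 TPM in the KO-labelled libraries. The controls lay apart by more than a doubling, and the other group was tight. *Cxxc1*, which binds PRDM9 and CpG-rich DNA, had a log2 fold change of 0.25, just under the median of all genes, which turned to -0.077 after median-ratio scaling. *Hells*, the remodeller that opens hotspots together with PRDM9, was at 106 and 157 against 318 and 291 TPM. The ratio of *Prdm9* to *Zcwpw1* overlapped between the groups, at 0.16 and 0.12 against 0.14 and 0.11.

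On the chromosome axis, 5 of 7 genes lay higher without overlap (38.6% of all genes) and the median was 0.73, and after median-ratio scaling 4 did, with a median of 0.41. *Smc1b*, the meiotic cohesin subunit, was at 232 and 165 TPM in controls, against 455 and 459 TPM in the KO-labelled libraries. *Sycp3* was at 1108 and 1263 against 2093 and 2196 TPM. *Rec8*, whose knock-in allele defines the gate and was heterozygous in 1 control testis, was at 7.05 TPM in control 1 and 27.9 TPM in control 2, and at 27.7 and 19.4 TPM in the KO-labelled libraries, so the controls spanned the other group. Without control 1 its log2 fold change turned from 0.67 to -0.25.

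Among partners of the HORMA domain proteins and TRIP13, 4 of 6 genes lay higher without overlap (38.6% of all genes), 1 lay lower (12.1% of all genes) and the median was 0.49. After median-ratio scaling, 2 lay higher (*Atr* and *Brca1*, against 23.1% of all genes) and the median was 0.16. Lower were 2 (*Mad2l1bp* and *Mad2l2*), against 22.3% of all genes after this scaling. *Mad2l2*, which encodes another HORMA domain protein that TRIP13 acts on, was the exception, at 288 and 220 TPM in controls, against 133 and 159 TPM in the KO-labelled libraries (log2 fold change -0.78, SE 0.23, adjusted p = 0.319 from limma). *Mad2l1*, the spindle checkpoint HORMA protein, was at 62.1 and 96.8 against 120 and 110 TPM. *Mad2l1bp*, the adaptor that brings HORMA proteins to TRIP13, overlapped between the groups, at 18.3 and 15.5 against 20.1 and 17.5 TPM. *Brca1*, which acts with the HORMADs on unsynapsed axes, was at 14.4 and 16.4 against 35.0 and 28.3 TPM.

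**Figure D4:**
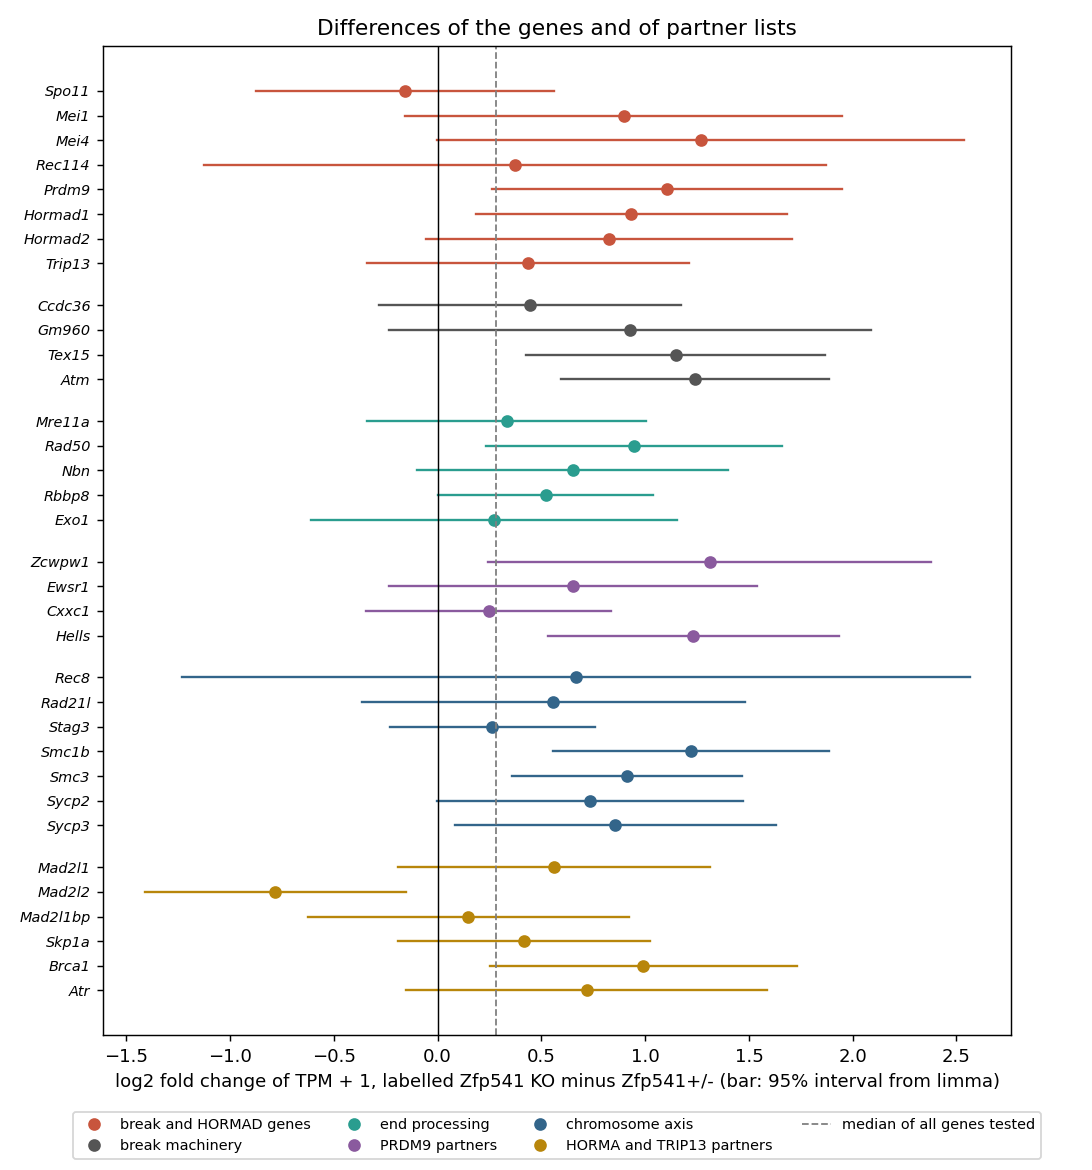
Log2 fold change of TPM + 1 (KO-labelled libraries minus *Zfp541*+/-) of the 8 genes and of the 26 tested genes of the 5 partner lists, with bars for the 95% interval from limma, a solid line at 0 and a dashed line at the median of all genes tested, 0.28. *Spo11* and *Mad2l2* are the genes below 0, and *Mad2l2* is the gene whose interval lies wholly below 0, while intervals lie wholly above 0 for *Prdm9*, *Hormad1*, *Tex15*, *Atm*, *Rad50*, *Rbbp8*, *Zcwpw1*, *Hells*, *Smc1b*, *Smc3*, *Sycp3* and *Brca1*. The intervals are not adjusted for the number of genes tested, and none of the genes shown passed an FDR of 0.05. Of all genes tested, 10.7% were higher at an unadjusted p under 0.05 in limma.

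The genes whose pattern over the 4 libraries was most like the mean pattern of the 8 were sought among all genes tested, by the root mean square difference of centred log2(TPM + 1). The nearest were *Parp12* (0.016), *Tro* (0.024), *Usp3* (0.027), *Rell2* (0.027) and *Mex3b* (0.032). *Parp12* was at 99.0 and 159 TPM in controls, against 214 and 199 TPM in the KO-labelled libraries. Likeness over 4 libraries is a description of these samples alone.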

How the data were processed

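GFP-positive testis cells of 2 *Zfp541*+/- and 2 *Zfp541* KO samples (postnatal day 18) were grouped by their titles. The authors trimmed reads with Trim Galore 0.5.0 (cutadapt 1.16), aligned them to mm10 with STAR 2.6.0a and estimated expression with RSEM 1.3.1. The deposited values are TPM for each gene, without counts, so depth and counting error are unknown, and whether counting used strand is not given in the sources used here. A date stands where the symbol should be in 27 rows of each table.

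With limma 3.58.1 (R 4.3.3), log2(TPM + 1) was fitted by genotype for genes averaging 1 TPM or more, using limma's variance trend, and p-values were adjusted over all these genes by the Benjamini-Hochberg method. Named were all listed genes, *Zfp541*, the partner genes and the 5 genes nearest in pattern. Members and lists were chosen with earlier results of these data known, and the ratios and the genes given as examples after the values were seen. Where a control was left out, the fit has 3 libraries. Gene positions are from GENCODE M21 (GRCm38), whose assembly mm10 names.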

Additional observations from a re-analysis of the deposited data

How the results depend on the processing

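None of the 8 genes or of the 26 partner genes passed an FDR of 0.05 in any alternative with all 4 libraries. The count over all genes, 0 as reported, was 2 with no filter (2846 genes at an unadjusted p under 0.05) and 0 under the other pseudocounts, filter, scalings and variance model tried with all libraries. With replicate number as a block, 0 genes passed and the adjusted p of the 8 genes lay between 0.629 and 0.912. Deviations from group means of samples that share a number correlated at -0.156 over 14512 genes, and the crossed replicate block, added after that was seen, gave 7 genes higher and 80 lower (87 in all), 0 of the 8 genes among them.

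When a library was left out, the count ranged from 0 to 6985. It was 6985 of the 14512 genes tested without control 1 and 4123 of them without control 2. The 8 genes then had a median log2 fold change of 0.46 without control 1, against 0.44 over all genes. That median was 1.2 against 0.15 without control 2. In these fits the spread comes from the 2 libraries labelled *Zfp541* KO alone, and the lone control is assumed to vary as little as they do. The median of the 8 genes ranged from 0.46 to 1.2, that of the break machinery list from 0.68 to 1.31 and that of the HORMA and TRIP13 partners from 0.29 to 0.54. *Spo11* ranged from -0.41 to 0.0933 and *Rec114* from -0.35 to 1.10.

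Median-ratio scaling, which took the median of all genes from 0.28 to -0.0044 and the share of genes higher from 69.0% to 49.7%, put the 8 genes at 0.54, the break machinery at 0.72, end processing at 0.20, the axis genes at 0.41 and the HORMA and TRIP13 partners at 0.16. The groups then stayed apart in 3 genes that were higher (*Prdm9*, *Mei4* and *Hormad1*) and in *Spo11*, which was lower. Under quantile normalization 4 of the 8 genes were higher without overlap, against 27.8% of all genes, and 1 was lower, against 19.4%. The share of all genes with a log2 fold change above 0 was then 55.8%. Directions turned under median-ratio scaling in *Exo1* (-0.038), *Cxxc1* (-0.077), *Stag3* (-0.061) and *Mad2l1bp* (-0.16, and -0.12 under quantile normalization), and without control 1 in *Rec8*, which ranged from -0.25 to 1.59 when a library was left out. Without control 1, the medians of end processing, PRDM9 partners and axis genes were 0.63, 0.88 and 0.76, against 0.44 over all genes. Without control 2 they were 0.41, 0.98 and 0.82, against 0.15. The ratios within a library were not run under the alternatives.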
